A study of Homo sapiens with 12 samples.

Results

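This report covers genes of cysteine, taurine, methionine and creatine metabolism in HepG2 cells, a line from a human liver carcinoma, grown as spheroids. The list names 10 genes, and 9 of them were measured among 18404 genes: CDO1, CSAD, SLC6A6, CTH, BHMT, MAT1A, MAT2A, GATM and GAMT. The genes were chosen by their function and with the differences between the groups on these same arrays already known. The rule takes probe sets with exactly 1 gene symbol and keeps the brightest over the 12 arrays. Each of the 9 had 1 such probe set, so the brightness rule chose nothing among them. The probe set annotated to CBS, the enzyme that joins homocysteine to serine, also carries a second symbol and was left out.

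The series compares 3 groups of 4 arrays: wild type HepG2, HIF-1α knockdown and HIF-2α knockdown, all as tumor spheroids that were 10 days old. The knockdown cells are written as sh1alpha and sh2alpha in the sample descriptions. The sources used here do not say if a control construct was present in wild type cells or if a knockdown line was 1 clone. Each group comes from 4 spheroid experiments, and the question is how the transcripts differ between the genotypes.

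Methionine is activated to S-adenosylmethionine, the methyl donor of the cell, by the methionine adenosyltransferases MAT1A and MAT2A. The homocysteine that is left after methyl transfer is turned back into methionine, for which BHMT uses betaine, or passed through CBS and CTH to cysteine. Hepatocytes oxidise cysteine with CDO1 and decarboxylate the product with CSAD on the way to taurine, which SLC6A6 carries into cells. GATM makes guanidinoacetate from arginine and glycine, and GAMT methylates it to creatine at the cost of S-adenosylmethionine. MAT1A, BHMT, CDO1 and GAMT are typical of differentiated liver, while MAT2A is the form of growing and extrahepatic cells.

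The targeted transcripts fell in their own knockdown, HIF1A to 42.5% and EPAS1, which encodes HIF-2α, to 46.0% of the wild type signal (limma, adjusted p = 0.00241 and 0.000206). All 16 measured hepatocyte markers lay above the median gene level of 7.69, whereas 1 of 10 fibroblast, 2 of 8 endothelial and 3 of 9 leukocyte markers did. The 3 leukocyte markers were LYZ, CD68 and TYROBP, and PTPRC, which defines leukocytes, lay at 6.52. On 3 arrays, wild type 1 and 2 and HIF-2α knockdown 4, the lowest values were raised: the 0.1 percentile was 6.33 to 6.35 there and 6.11 to 6.23 elsewhere. HIF-2α knockdown replicate 2 had the lowest median of all genes on an array, 7.29 against 7.34 to 7.41 on the others, and the highest HIF1A signal, 11.46. The called genes of the list are also given without these arrays.

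CDO1 was higher in HIF-2α than in HIF-1α knockdown, with the wild type arrays between them, and GATM was lower in both knockdowns than in wild type. The other 7 genes passed the test in no comparison. A gene is called when its Benjamini-Hochberg adjusted p from limma, over all 18404 genes, lies below 0.05. In HIF-1α knockdown against wild type 1 of the 9 genes was called, as lower, where 0.962% of all genes were called and 0.147% as lower. In HIF-2α knockdown against wild type 1 was called, as lower, where 0.788% of all genes were called and 0.31% as lower. Between the knockdowns 1 was called, higher in HIF-2α knockdown, where 2.77% of all genes were called and 0.967% as higher. Because of how the genes were chosen these counts describe the genes and are no independent evidence. The median difference of the 9 genes was -0.10 in HIF-1α knockdown and 0.11 in HIF-2α knockdown against wild type, and 0.19 between the knockdowns. Over all genes these medians were 0.0049, -0.011 and -0.012. In bulk RNA fewer cells of a type and less RNA per cell cannot be told apart.

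**Figure D1:**
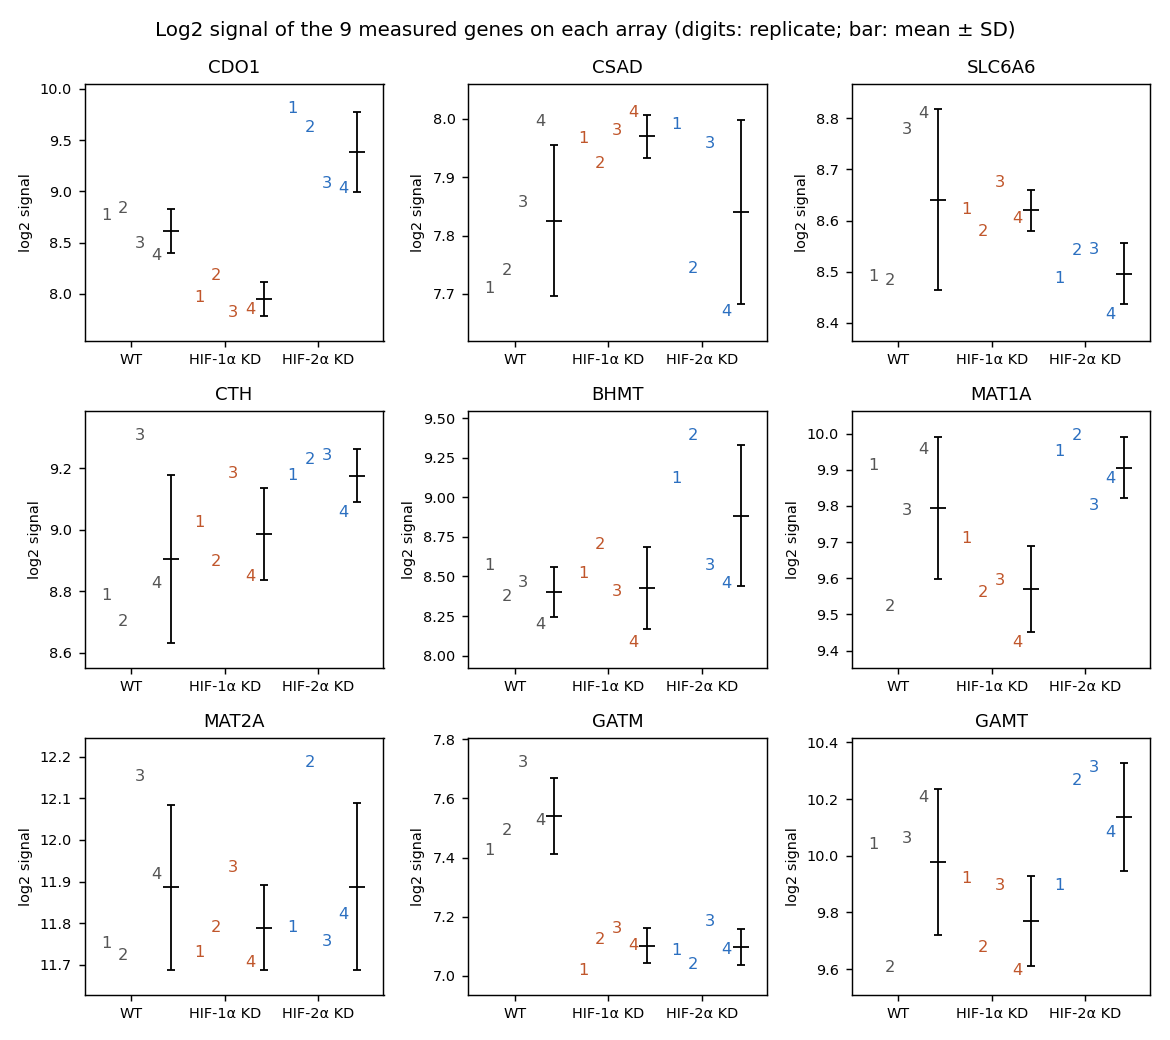
Log2 signal of the 9 measured genes in wild type (WT), HIF-1α knockdown (HIF-1α KD) and HIF-2α knockdown (HIF-2α KD) spheroids; each digit is 1 array at its replicate number, and the bar is the mean ± SD of 4 arrays, with a separate axis for each gene. The CDO1 arrays form 3 separate sets, from 7.82 to 8.18, 8.37 to 8.83 and 9.03 to 9.81, and the GATM arrays of both knockdowns lie below every wild type array.

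CDO1, cysteine dioxygenase, commits cysteine to oxidation. The upstream sequence of CDO1 and of GATM, the genes with a call, is shown because HIF binds DNA at a short core that ends in CGTG. The stretches run 5′ to 3′ over the 250 bases before the annotated start, from RefSeq promoter windows of GRCh38.p14. That of CDO1 lies at chr5:115816660-115816909 and that of GATM at chr15:45378545-45378794, both on the minus strand. Capitals mark ACGTG or GCGTG, also where they are read on the opposite strand as CACGT or CACGC.
CDO1: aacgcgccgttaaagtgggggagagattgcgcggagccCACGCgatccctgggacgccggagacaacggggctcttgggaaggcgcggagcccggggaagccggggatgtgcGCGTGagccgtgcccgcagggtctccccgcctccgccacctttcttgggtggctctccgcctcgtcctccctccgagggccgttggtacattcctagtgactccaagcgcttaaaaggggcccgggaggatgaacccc
GATM: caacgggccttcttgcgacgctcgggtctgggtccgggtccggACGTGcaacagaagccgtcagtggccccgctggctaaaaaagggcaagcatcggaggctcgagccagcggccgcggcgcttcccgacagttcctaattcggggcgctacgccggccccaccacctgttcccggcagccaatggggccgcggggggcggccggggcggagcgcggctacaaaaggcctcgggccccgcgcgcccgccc

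In CDO1 the GCGTG letters begin 212 and 138 bases before the start, the first on the opposite strand, and in GATM the ACGTG letters begin 207 bases before it. Promoters of 7 of the 9 genes were in the table, all but those of GAMT and SLC6A6. BHMT was the other 1 of the 7 with a match, with GCGTG 100 bases and, on the opposite strand, 45 bases before the start, so 3 of 7 held either motif. Of 35116 RefSeq promoters, 18.5% held ACGTG and 32.2% GCGTG on either strand within these 250 bases, and 43.2% held at least 1 of them, with CACGTG counted on both strands. A match of 5 letters is a description and not a site.

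The log2 signal of CDO1 was 8.76, 8.83, 8.49 and 8.37 in wild type replicates 1 to 4. It was 7.97, 8.18, 7.82 and 7.84 in HIF-1α knockdown and 9.81, 9.62, 9.07 and 9.03 in HIF-2α knockdown. No array of a group overlapped with another group. The gaps between neighbouring groups were 0.19 below wild type and 0.20 above it. The group means were 8.61 ± 0.22 (SD, n = 4) in wild type, 7.95 ± 0.17 in HIF-1α knockdown and 9.38 ± 0.39 in HIF-2α knockdown.

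CDO1 was 2.697-fold higher in HIF-2α than in HIF-1α knockdown (log2 difference 1.43, SE 0.16, adjusted p = 0.000438). In size, 0.0543% of all genes differed more between the knockdowns. Against wild type the gene missed the threshold on either side. It differed by -0.66 in HIF-1α knockdown (95% interval -1.02 to -0.31, adjusted p = 0.0790) and by 0.77 in HIF-2α knockdown (0.42 to 1.12, adjusted p = 0.0502). These comparisons share the wild type arrays. Without the 3 arrays with a raised floor the differences of CDO1 were 1.55 between the knockdowns (adjusted p = 0.00476), -0.48 in HIF-1α knockdown (adjusted p = 0.356) and 1.07 in HIF-2α knockdown (adjusted p = 0.0864). Without HIF-2α knockdown replicate 2 the difference of CDO1 between the knockdowns was 1.35 (adjusted p = 0.00151).

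In all 3 groups replicates 1 and 2 had higher CDO1 signals than replicates 3 and 4. In wild type these are the 2 arrays with a raised floor, and in HIF-2α knockdown the range of 0.78 was the widest of CDO1 in a group. The call between the knockdowns held without any single array, with differences from 1.29 to 1.55. The calls against wild type came and went with single arrays. CDO1 was called as lower in HIF-1α knockdown without HIF-2α knockdown replicate 1 (adjusted p = 0.0389). That array is not part of this comparison: the difference stayed at -0.66, and the spread estimated from all 3 groups changed. When the 2 groups alone were fitted, CDO1 passed in HIF-1α knockdown (adjusted p = 0.0174) and not in HIF-2α knockdown (adjusted p = 0.135). CDO1 was called as higher in HIF-2α knockdown without replicate 3 or replicate 4 of that group (adjusted p = 0.0348 and 0.0341).

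Other liver genes are set beside CDO1 here. The mean of the 16 hepatocyte markers ran from 11.97 to 12.40 in wild type, from 11.51 to 11.80 in HIF-1α knockdown and from 11.89 to 12.38 in HIF-2α knockdown. In HIF-1α knockdown 15 of the 16 differences were negative and 3 were called as lower, with a median of -0.41. Among all genes 52.0% were positive there and 0.147% were called as lower. In HIF-2α knockdown 4 markers were positive, 2 were called as higher, and the median was -0.089, where 44.6% of all genes were positive and 0.478% called as higher. The HIF-1α knockdown arrays were thus below every wild type array for CDO1 and for the marker mean. The HIF-2α knockdown arrays were all above wild type for CDO1, while for the marker mean replicate 1 lay below every wild type array and the other 3 lay within the wild type range. The mean of 39 ribosomal protein genes ran from 12.08 to 12.58 in wild type, from 11.78 to 12.09 in HIF-1α knockdown and from 11.88 to 12.46 in HIF-2α knockdown. Against wild type 38 of the 39 were negative in HIF-1α knockdown, with a median of -0.44. In HIF-2α knockdown 31 were negative, with a median of -0.10. The part of either list in the differences of CDO1, MAT1A and GAMT was not tested.

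**Figure D2:**
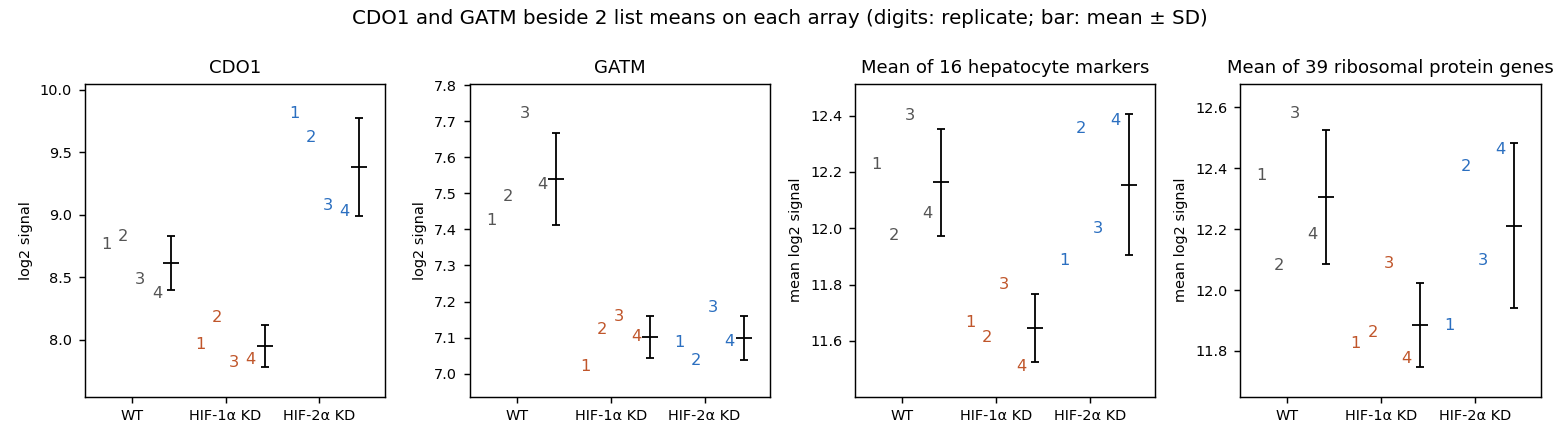
Log2 signal of CDO1 and GATM, and the mean log2 signal of 16 hepatocyte markers and of 39 ribosomal protein genes, on each array of wild type (WT), HIF-1α knockdown (HIF-1α KD) and HIF-2α knockdown (HIF-2α KD); digits are replicate numbers and bars the mean ± SD of 4 arrays. The marker mean is low in HIF-1α knockdown and overlaps between HIF-2α knockdown and wild type, whereas CDO1 separates all 3 groups and GATM is low in both knockdowns.

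The genes with the smallest root mean square difference from CDO1 over the 12 arrays, each gene centred on its own mean, were SPTSSB at 0.19, FGG at 0.28 and ODAM at 0.30. CDO1 itself had an SD of 0.66 over these arrays. SPTSSB, a small subunit of serine palmitoyltransferase, differed between the knockdowns by 1.62, FGG, the gamma chain of fibrinogen, by 1.27 and ODAM by 1.16. All 3, like CDO1, had their lowest mean in HIF-1α knockdown and their highest in HIF-2α knockdown. They were picked by their likeness to CDO1 on these same arrays, so the shared order follows from that choice and is no separate result. FGG is also 1 of the 16 hepatocyte markers in the mean above, as are FGA and FGB, the other fibrinogen chain genes. Over the 12 arrays FGB ran from 7.78 to 10.56, FGA from 10.71 to 12.60 and FGG from 10.38 to 12.03. The marker list is thus not independent of the genes nearest to CDO1.

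The genes after CDO1 on the way to taurine did not pass the test. CSAD, cysteine sulfinate decarboxylase, had log2 signals of 7.71, 7.74, 7.86 and 7.995 in the wild type arrays, 7.97, 7.92, 7.98 and 8.01 in those of HIF-1α knockdown and 7.99, 7.74, 7.96 and 7.67 in HIF-2α knockdown. The 3 groups overlapped, and the HIF-1α knockdown arrays lay within 0.088 of each other. CSAD differed between the knockdowns by -0.13 (95% interval -0.30 to 0.043, adjusted p = 0.572), an interval that does not reach the 1.43 of CDO1. Against wild type it differed by 0.14 in HIF-1α knockdown (adjusted p = 0.498) and by 0.015 in HIF-2α knockdown (adjusted p = 0.967).

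SLC6A6, the taurine transporter, had log2 signals of 8.49, 8.48, 8.78 and 8.81 in wild type. They were 8.62, 8.58, 8.68 and 8.60 in HIF-1α knockdown and 8.49, 8.54, 8.54 and 8.42 in HIF-2α knockdown. The knockdown arrays were apart from each other, by 0.036, and the wild type arrays overlapped with both, though HIF-2α knockdown replicate 4 was the lowest of all 12. The difference of SLC6A6 between the knockdowns was -0.12 (95% interval -0.29 to 0.040, adjusted p = 0.566), and that between HIF-2α knockdown and wild type was -0.14 (adjusted p = 0.489). After quantile normalization of the arrays the latter was -0.20 and passed (adjusted p = 0.0354). Wild type replicates 1 and 2, which have the raised floor, were the low ones of their group for SLC6A6 and for CSAD.

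CTH, cystathionine gamma-lyase, releases cysteine at the end of transsulfuration. Its log2 signals were 8.78, 8.70, 9.31 and 8.83 in the wild type arrays, 9.02, 8.90, 9.18 and 8.85 in those of HIF-1α knockdown and 9.18, 9.23, 9.24 and 9.06 in HIF-2α knockdown. Wild type replicate 3 was the highest of all 12 arrays, and the other 3 wild type arrays lay below every HIF-2α knockdown array. Set against wild type, CTH was at 0.27 in HIF-2α knockdown (95% interval 0.024 to 0.52, adjusted p = 0.357) and at 0.083 in HIF-1α knockdown (adjusted p = 0.826). Without wild type replicate 3 the difference of CTH in HIF-2α knockdown was 0.41 and passed (adjusted p = 0.0344).

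BHMT, betaine-homocysteine methyltransferase, had wild type log2 signals of 8.57, 8.37, 8.46 and 8.19, and 8.52, 8.70, 8.41 and 8.08 in HIF-1α knockdown. In HIF-2α knockdown they were 9.12, 9.39, 8.57 and 8.45. Replicates 1 and 2 of HIF-2α knockdown stood above all arrays of the other groups, and replicates 3 and 4 lay among them. The BHMT difference was 0.48 against wild type (95% interval 0.086 to 0.88, adjusted p = 0.293) and 0.46 between the knockdowns (0.059 to 0.85, adjusted p = 0.276). The same 2 arrays were the high ones of the group for CDO1. In HIF-1α knockdown BHMT differed from wild type by 0.027 (-0.37 to 0.42, adjusted p = 0.9746).

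MAT1A, the liver form of methionine adenosyltransferase, had log2 signals of 9.91, 9.52, 9.79 and 9.96 in the wild type arrays, 9.71, 9.56, 9.59 and 9.42 in those of HIF-1α knockdown and 9.95, 9.99, 9.80 and 9.88 in HIF-2α knockdown. The knockdowns did not overlap, with a gap of 0.092, and wild type replicate 2 was down among the HIF-1α knockdown arrays. MAT1A differed between the knockdowns by 0.33 and missed the threshold (95% interval 0.14 to 0.53, adjusted p = 0.0721). Against wild type it differed by -0.22 in HIF-1α knockdown (adjusted p = 0.295) and by 0.11 in HIF-2α knockdown (adjusted p = 0.704). The difference of MAT1A between the knockdowns passed after quantile normalization (0.35, adjusted p = 0.0379), when the knockdowns alone were fitted (adjusted p = 0.0360) and without wild type replicate 2 (adjusted p = 0.0239).

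MAT2A, the form of growing cells, had log2 signals of 11.75, 11.72, 12.15 and 11.92 in the wild type arrays, 11.73, 11.79, 11.93 and 11.70 in those of HIF-1α knockdown and 11.79, 12.19, 11.76 and 11.82 in HIF-2α knockdown. All 3 groups overlapped. The differences of MAT2A from wild type were -0.097 in HIF-1α knockdown (95% interval -0.33 to 0.14, adjusted p = 0.781) and 0.0020 in HIF-2α knockdown (-0.23 to 0.23, adjusted p = 0.996). Between the knockdowns it was 0.099 (-0.13 to 0.33, adjusted p = 0.819). A change of MAT2A of up to 0.33 on the log2 scale thus stays within these intervals.

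**Figure D3:**
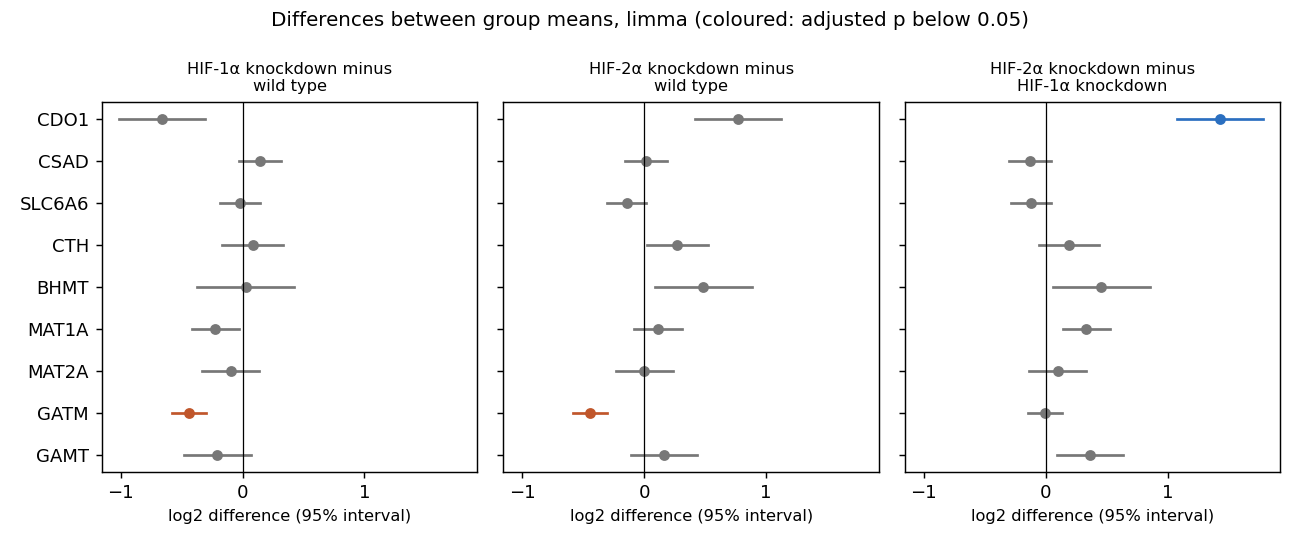
Differences between group means on the log2 scale for the 9 genes in 3 comparisons, as points with limma's 95% intervals; colour marks an adjusted p below 0.05, orange for lower and blue for higher. GATM is coloured in both comparisons with wild type, at -0.44 in each, and CDO1 between the knockdowns, at 1.43.

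GATM, glycine amidinotransferase, opens creatine synthesis. Its log2 signals were 7.42, 7.49, 7.72 and 7.53 in wild type. They were 7.02, 7.12, 7.16 and 7.10 in HIF-1α knockdown and 7.09, 7.04, 7.18 and 7.09 in HIF-2α knockdown. Every knockdown array lay below every wild type array, by at least 0.24, and the 2 knockdowns covered the same range. In HIF-1α knockdown GATM fell by 0.44 to 73.8% of the wild type signal (SE 0.065, adjusted p = 0.00686). In HIF-2α knockdown it fell by 0.44 to 73.6% (SE 0.065, adjusted p = 0.00626). The knockdowns share their wild type arrays, so these are not separate observations of the wild type level. Between the knockdowns GATM differed by -0.0026 (95% interval -0.14 to 0.14, adjusted p = 0.995).

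The GATM signal was low on these arrays: 46.5% of genes had a lower mean in wild type, 32.0% in HIF-1α knockdown and 33.1% in HIF-2α knockdown. No detection call comes with the values, so how much of the remaining signal is background is unknown. With wild type replicates 3 and 4 alone, and HIF-2α knockdown 4 left out too, the falls of GATM were 0.52 in either knockdown (adjusted p = 0.0473 and 0.0470). Without HIF-2α knockdown replicate 2 the difference of GATM in HIF-2α knockdown was -0.42 (adjusted p = 0.0173). Leaving out single arrays gave differences from -0.48 to -0.38 in both comparisons, and each was called. The genes closest to GATM over the 12 arrays were HK2, a hexokinase, at a root mean square difference of 0.084, the aldolase ALDOA at 0.11 and OR56A4, an olfactory receptor gene, at 0.11, where GATM had an SD of 0.23. HK2 lay 0.48 and 0.46 below wild type in HIF-1α and HIF-2α knockdown. Falls like those of GATM follow from its choice by likeness to GATM.

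GAMT, guanidinoacetate methyltransferase, completes creatine synthesis and was not called. Its log2 signals were 10.04, 9.61, 10.06 and 10.20 in the wild type arrays, 9.92, 9.68, 9.89 and 9.60 in those of HIF-1α knockdown and 9.89, 10.26, 10.31 and 10.08 in HIF-2α knockdown. The groups overlapped, the knockdowns by 1 array in each. GAMT differed from wild type by -0.21 in HIF-1α knockdown (95% interval -0.48 to 0.065, adjusted p = 0.557) and by 0.16 in HIF-2α knockdown (95% interval -0.11 to 0.43, adjusted p = 0.694). Between the knockdowns it differed by 0.37 (0.095 to 0.64, adjusted p = 0.175). The interval of GATM, -0.58 to -0.30 in either knockdown, overlaps with that of GAMT in HIF-1α knockdown and lies below it in HIF-2α knockdown. Wild type replicate 2 was the low array of its group for GAMT, as for MAT1A.

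CDO1, MAT1A, MAT2A and GAMT had their lowest group mean in HIF-1α knockdown and their highest in HIF-2α knockdown. SLC6A6 had the reverse end, with its lowest mean in HIF-2α knockdown and its highest in wild type. CTH and BHMT had their highest mean in HIF-2α knockdown and their lowest in wild type. Of these 7 genes CDO1 alone differed between groups beyond the threshold. Some of the orders rest on small differences. MAT2A differed by 0.0020 between HIF-2α knockdown and wild type. BHMT and SLC6A6 differed by 0.027 and -0.021 between HIF-1α knockdown and wild type. Of the 9 genes, 2 had arrays that did not overlap between HIF-1α knockdown and wild type, CDO1 and GATM, both lower, where 7.84% of all genes did not overlap, 5.73% higher and 2.11% lower. Between HIF-2α knockdown and wild type they were CDO1, higher, and GATM, lower, where 5.31% of all genes did not overlap, 3.4% higher and 1.91% lower. Between the knockdowns they were CDO1 and MAT1A, higher in HIF-2α knockdown, and SLC6A6, lower, where 9.08% of all genes did not overlap, 3.73% higher and 5.35% lower.

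The wider pathways were described with 10 lists of 136 genes, of which 123 were measured. In HIF-1α knockdown 1 of the 123 rose and 1 fell against wild type. In HIF-2α knockdown 1 rose and 2 fell, and between the knockdowns 2 were higher and 3 lower in HIF-2α knockdown. The 123 include the 9 genes above, which were chosen with their differences known. GATM is among the falls against wild type in both knockdowns, and CDO1 is among the genes higher in HIF-2α than in HIF-1α knockdown. Among all genes 0.815% were called higher and 0.147% lower in HIF-1α knockdown, 0.478% and 0.31% in HIF-2α knockdown, and 0.967% and 1.8% between the knockdowns.

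The creatine list held CKB beside GATM among these calls. CKB, the brain-type creatine kinase that charges creatine with phosphate, had log2 signals of 11.02, 10.80, 11.01 and 11.19 in the wild type arrays, 10.68, 10.82, 11.04 and 10.67 in those of HIF-1α knockdown and 10.03, 10.23, 10.35 and 10.24 in HIF-2α knockdown. Its HIF-2α knockdown arrays lay below all others. In HIF-2α knockdown CKB fell by 0.80 against wild type (SE 0.098, adjusted p = 0.00197), and it was lower by 0.59 than in HIF-1α knockdown (log2 difference -0.59, adjusted p = 0.00588). In HIF-1α knockdown CKB differed from wild type by -0.21 (adjusted p = 0.399). The creatine transporter SLC6A8, singled out after its values were seen, differed from wild type by -0.24 in HIF-1α and -0.36 in HIF-2α knockdown and was not called (adjusted p = 0.463 and 0.236). The 8 measured genes of this list include GATM and GAMT. Of the 8, 6 were negative in HIF-1α knockdown and 7 in HIF-2α knockdown, with medians of -0.15 and -0.14. Over all genes 52.0% and 44.6% were positive in these comparisons, with medians of 0.0049 and -0.011. Among the 7, CKM, SLC16A12 and SLC16A9 differed by -0.0058, -0.012 and -0.043.

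The list of methionine activation and the methyl cycle had 14 measured genes and none called by limma in any comparison, while 3, 3 and 6 had an unadjusted p below 0.05 in HIF-1α knockdown, in HIF-2α knockdown and between the knockdowns. Over all genes 13.2%, 12.01% and 13.6% had such a p in these comparisons, the background for this count and for those of the lists that follow. AHCY, which splits S-adenosylhomocysteine, had the lowest of these p in HIF-1α knockdown, where it differed by -0.43 (adjusted p = 0.102). BHMT2, a relative of BHMT, differed between the knockdowns by -0.40 (adjusted p = 0.0510), the opposite sign to the 0.46 of BHMT. MAT2B, the regulatory partner of MAT2A, was chosen after its values were seen. It differed from wild type by 0.25 in HIF-1α and 0.28 in HIF-2α knockdown (adjusted p = 0.167 and 0.140).

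In the list of transsulfuration and cysteine catabolism CDO1 was the 1 gene of 14 with a call. The taurine and osmolyte list had none among 7 by limma, and 0, 0 and 2 with an unadjusted p below 0.05 in the 3 comparisons, beside 13.2%, 12.01% and 13.6% of all genes. The 2 were SLC5A3, a carrier of the osmolyte myo-inositol (-0.23 between the knockdowns, adjusted p = 0.161), and SLC36A1, a carrier of small amino acids (-0.16, adjusted p = 0.203).

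**Figure D4:**
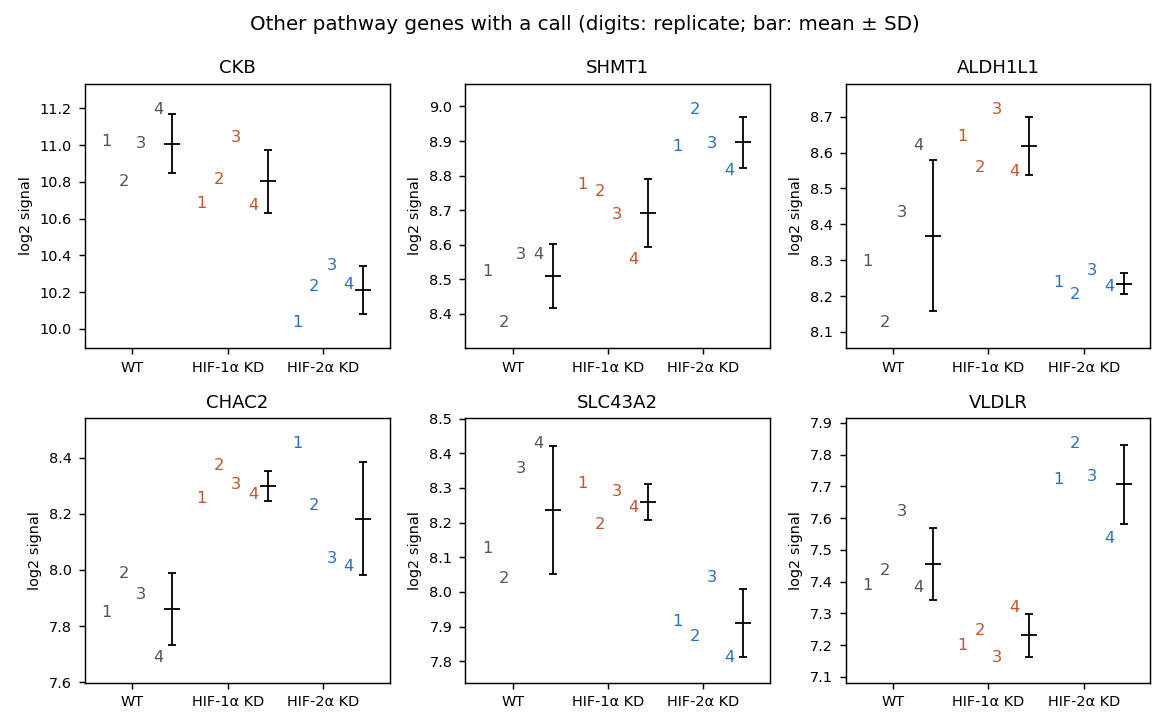
Log2 signal of the 6 further pathway genes that were called in at least 1 comparison, in wild type (WT), HIF-1α knockdown (HIF-1α KD) and HIF-2α knockdown (HIF-2α KD); digits are replicate numbers and bars the mean ± SD of 4 arrays. CKB is below all other arrays in HIF-2α knockdown, SHMT1 is above them, and the CHAC2 arrays of HIF-1α knockdown all lie above those of wild type.

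Folate enzymes supply the methyl groups of the cycle. SHMT1, the cytosolic serine hydroxymethyltransferase, had log2 signals of 8.52, 8.37, 8.57 and 8.57 in the wild type arrays, 8.77, 8.75, 8.69 and 8.56 in those of HIF-1α knockdown and 8.89, 8.99, 8.89 and 8.81 in HIF-2α knockdown. In HIF-2α knockdown SHMT1 rose by 0.39 over wild type (SE 0.065, adjusted p = 0.0159), a call that ended without the 3 arrays with a raised floor (0.35, adjusted p = 0.101). ALDH1L1, which oxidises formyl-folate, was lower in HIF-2α than in HIF-1α knockdown (log2 difference -0.38, adjusted p = 0.0295). The ALDH1L1 call was lost without any 1 of the HIF-1α knockdown arrays or of HIF-2α knockdown replicates 2, 3 and 4 (adjusted p from 0.0537 to 0.117), and after centring each array on its median (-0.36, adjusted p = 0.0522). No other gene of the 19 measured in the folate list was called.

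CHAC2, which breaks down glutathione, rose in HIF-1α knockdown, from 7.69 to 7.99 in wild type to 8.25 to 8.37 (log2 difference 0.44, SE 0.091, adjusted p = 0.0392). The CHAC2 call was lost after median centring and after quantile normalization (adjusted p = 0.0887 and 0.0859), on the 9 arrays with the lower floor (adjusted p = 0.151), and without any 1 of wild type replicates 1, 2 and 4 or of the HIF-1α knockdown arrays (adjusted p from 0.0508 to 0.139). SLC43A2, a carrier of large neutral amino acids such as methionine, was lower in HIF-2α than in HIF-1α knockdown (log2 difference -0.35, adjusted p = 0.0382). The SLC43A2 call was lost after median centring (adjusted p = 0.0512) and without any 1 of the HIF-1α knockdown arrays or of HIF-2α knockdown replicates 1, 2 and 4 (adjusted p from 0.0603 to 0.126). In the amino acid response list VLDLR, a lipoprotein receptor, was higher in HIF-2α than in HIF-1α knockdown (log2 difference 0.47, adjusted p = 0.00327). The other 14 genes of that list, with ATF4 among them, were not called in any comparison.

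The list of choline and betaine oxidation, not all of whose genes act in the supply of betaine, had no call among 8 genes by limma. In the 3 comparisons 2, 0 and 2 had an unadjusted p below 0.05, beside 13.2%, 12.01% and 13.6% of all genes. All 8 were positive in HIF-1α knockdown, with a median of 0.11. There 52.0% of all genes were positive, with a median of 0.0049, and genes above the median level had a median of 0.059. SLC44A2, a choline carrier, and DMGDH, dimethylglycine dehydrogenase, had the smallest p of the 8 (0.25 and 0.15, adjusted p = 0.102 and 0.274). The list of methionine salvage and polyamines had no call among 14 by limma, with 2, 2 and 3 at an unadjusted p below 0.05, near the same background of 13.2%, 12.01% and 13.6%. ADI1, a dioxygenase of the salvage pathway, differed from wild type by 0.53 in HIF-1α knockdown (adjusted p = 0.0932), and APIP, a dehydratase of the same pathway, by -0.31 between the knockdowns (adjusted p = 0.106).

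**Figure D5:**
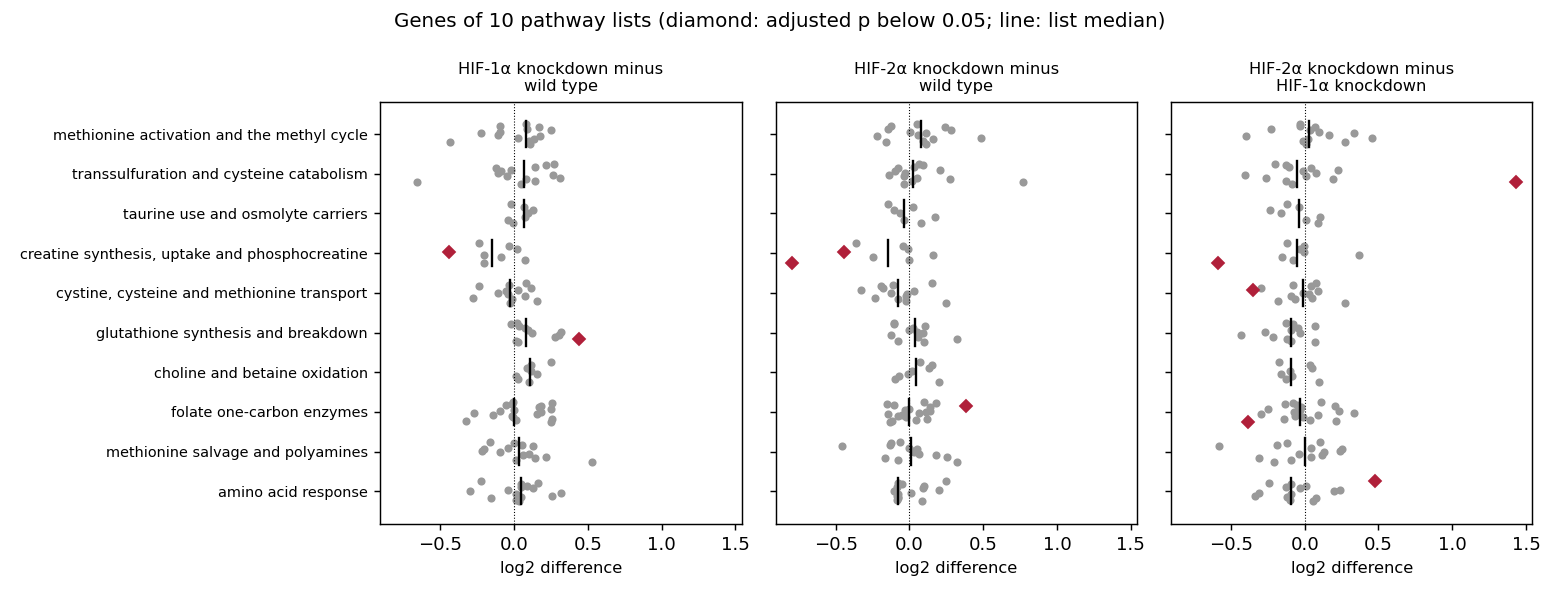
Log2 difference of each measured gene of 10 pathway lists in 3 comparisons; diamonds mark an adjusted p below 0.05 and the vertical line is the median of the list. CDO1 is the diamond at 1.43 between the knockdowns, and GATM and CKB are the diamonds of the creatine list.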

How the data were processed

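Per the labels' protocols, a kit used for 250 microdissected cells amplified the spheroid RNA, which was biotin labelled for the Affymetrix arrays. The authors deposited 1 table of log2 values for 32321 probe sets and 12 arrays. The base was inferred from the range, 5.93 to 15.05, and the sources used here do not state the background correction, summarization or normalization. Gene symbols came from the platform annotation and were updated through a RefSeq table (GRCh38.p14): 19158 had 1 symbol, 1388 several and 11775 none. The brightest probe set with 1 symbol stood for each of 18404 genes.

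limma 3.58.1 in R 4.3.3 was fitted to all 12 arrays with 1 mean per group (lmFit, eBayes), without a filter on level. SE and intervals are limma's moderated ones. In simulated data of 18404 genes it recovered 92%, 90% and 84% of 1.5-fold changes in HIF-1α and HIF-2α knockdown against wild type and between the knockdowns, and 34%, 54% and 54% of 1.25-fold changes. Unchanged genes gave 10, 15 and 11 calls. The changed genes were drawn at random, each with its own spread and independent normal noise. CDO1 and BHMT had the largest SEs of the 9 genes, 0.16 and 0.18, so these shares do not give their recovery.

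The members, lists and tests were chosen with earlier results of these data known. Named are all members, HIF1A and EPAS1, every pathway gene with a call, or else the 2 with the smallest p of a list, and the 3 genes nearest to each called member. With 4 arrays a group, precision is limited, and p-values reflect only the spread among these cultures. Same-numbered arrays were not treated as pairs in the reported fit. Of the correlations of their deviations 6 of 12 were over 0.1, against 11 of 36 between arrays of other numbers. These values do not settle if the numbers pair the arrays. The alternatives numbered 20, of which 12 left out 1 array.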

Additional observations from a re-analysis of the deposited data

Results flagged for a closer look

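MAT2A in HIF-2α knockdown replicate 2 stood apart from the other 3 arrays of its group. Its log2 signal was 12.19, against 11.82 for the nearest array and 11.76 for the lowest, so the gap took a share of 0.850 of the range, above Dixon's 95% critical value for 4 arrays. It was the 1 case among 27 sets of 4 arrays, and chance gives about 1 in 20. The same array has the highest HIF1A signal of all, 11.46.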

How the results depend on the processing

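The values of the 9 genes were recomputed under 20 alternatives in each comparison, which gave 537 values since GATM lies below the level filter. Of these, 521 kept their side of the threshold, 16 passed where the reported value did not, and none lost a call or reversed one. The number of the 9 genes called was 2 rather than 1 in HIF-1α knockdown when the 2 groups alone were fitted, with a trended and robust spread, and with the replicate number as a block. It was 2 rather than 1 in HIF-2α knockdown after quantile normalization, with the mean of a gene's probe sets, with a trended and robust spread and with the replicate block, and 2 rather than 1 between the knockdowns after quantile normalization and when the 2 groups alone were fitted. With only genes above the median level the number stayed at 1 against wild type, but the gene was CDO1, since GATM was filtered out. There CDO1 was lower in HIF-1α knockdown (adjusted p = 0.0494) and higher in HIF-2α knockdown (adjusted p = 0.0218). Without single arrays the number of genes called ran from 1 to 2 in each comparison. With the replicate block CDO1 passed against wild type in both knockdowns (adjusted p = 0.00708 and 0.00190). Whether the numbers pair the arrays is not settled. CDO1 itself was higher in replicates 1 and 2 than in 3 and 4 of every group. Over the alternatives the adjusted p of CDO1 ran from 0.00708 to 0.356 in HIF-1α knockdown, from 0.00190 to 0.144 in HIF-2α knockdown, and from 1.34e-05 to 0.00476 between the knockdowns.

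Over all genes, the calls ran from 22 to 483 around the reported 177 in HIF-1α knockdown, from 37 to 404 around 145 in HIF-2α knockdown and from 211 to 888 around 509 between the knockdowns. The split of higher and lower calls, 150 and 27 in HIF-1α knockdown as reported, was 140 and 114 after quantile normalization and 67 and 18 after median centring. It was 88 and 57 in HIF-2α knockdown, and 141 and 263, and 34 and 38, under these scalings. For the 14 further pathway genes, whose alternatives were added after the data were seen, 27 of 834 values lost a call, 18 gained one and none reversed. With 4 arrays in a group and no detection calls, small differences and levels near the floor are the limits.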

Other observations

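Replicates 1 and 2 lay above replicates 3 and 4 for CDO1 in all 3 groups. In HIF-2α knockdown they also did so for BHMT and for other genes named here, which were singled out after their values were seen. The log2 signals of replicates 1 to 4 of HIF-2α knockdown were 11.02, 11.02, 10.72 and 10.62 for ADI1, 8.83, 8.81, 8.49 and 8.34 for BHMT2 and 8.999, 9.003, 8.77 and 8.67 for APIP. CHAC2 had 8.45, 8.23, 8.04 and 8.01. SHMT1, at 8.89, 8.99, 8.89 and 8.81, and GATM, at 7.09, 7.04, 7.18 and 7.09, did not separate these pairs of arrays. The labels name no batch for them.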
